A study of Arabidopsis thaliana with 24 samples.

Results

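The 66 genes described here had fewer uncapped or cleaved transcript ends with abscisic acid (ABA) in Col-0 seedlings and more of them with ABA in dxo1 seedlings, among 28775 Arabidopsis thaliana gene rows. They were chosen on the readout called GMUCT, genome-wide mapping of uncapped and cleaved transcripts, which sequences RNA ends that carry a free 5′ phosphate. In GMUCT the counts were scaled to counts per 1000000 counts of the gene rows (CPM) and averaged per group, and the change with ABA was taken as the difference of log2(mean CPM + 1) between ABA and normal condition (NT). The rule asked for a nuclear gene with a mean of at least 10 CPM over the 4 groups, a change of -0.8 or lower in Col-0 and a change of 0.3 or higher in dxo1. A total of 11459 nuclear genes reached the minimum level, and 0.576% of them met both thresholds. The opposite rule, higher in Col-0 and lower in dxo1, gave 38 genes.

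The study had 24 libraries in 12 groups of 2, from 2 genotypes, 2 conditions and 3 readouts. The genotypes were dxo1, a mutant in the gene for the DXO1 enzyme (the sources used here name neither the allele nor the number of lines), and Col-0, the wild-type accession. Each was grown with ABA or under normal condition, on 1/2 MS medium with 16 h of light and 8 h of dark a day, and seedlings were taken at an age of 12 days. No dose or duration of ABA is stated there. GMUCT, the capture of RNA carrying a nicotinamide adenine dinucleotide cap (NAD) and total RNA were sequenced as strand-specific single reads of 50 nt. Nothing in the labels says that the 2 libraries of a group came from separate cultures, so p-values measure only the spread between these libraries, which may be technical.

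ABA is the plant hormone of drought, salt and seed dormancy; its receptors inhibit protein phosphatases, which frees kinases that act on transcription factors and ion channels. Plants also answer touch, wounding, cold and pathogens within minutes through calcium and MAP kinase signalling, and the first genes induced encode zinc finger, ethylene response, WRKY and MYB transcription factors whose transcripts are short and short-lived. Cytoplasmic mRNA decay removes the cap and exposes the 5′ phosphate that GMUCT detects. DXO1 belongs to a family of enzymes that take incomplete and NAD caps off RNA.

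Gene counts per library ran from 5793714 to 13940464 in GMUCT, from 750596 to 1526203 in NAD capture and from 878113 to 2027552 in total RNA. Counts of nuclear coding genes, with AT1G72645 left out, differed more. They ran from 5579253 to 13333016 in GMUCT, from 33038 to 160343 in NAD capture and from 130611 to 282910 in total RNA. GMUCT thus rests on by far the most counts. The samples are labelled both as seedlings and as bud tissue. In GMUCT, 6 of 7 floral organ genes (AP1, AP3, PI, AG, SEP1 and SEP2) stayed below 1 CPM in every group and the 7 summed to at most 6.68 CPM in a library, while 7 root genes summed to between 81.7 and 96.7 CPM. The floral markers thus go against the bud label. Seed storage genes moved with ABA: 8 of them summed to 305 and 331 CPM in dxo1 with ABA, against 1.36 and 1.17 CPM in dxo1 without, and to 1764 and 1560 CPM in Col-0 with ABA, against 3.14 and 3.77 CPM in Col-0 without. Their part in the results below was not tested. The annotation gives no gene the symbol DXO1, and the targeted gene is not reported here.

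Across the 66 genes the GMUCT change with ABA ran from 0.31 to 2.43 in dxo1 (median 0.62) and from -1.80 to -0.80 in Col-0 (median -1.08). Over all 11459 eligible genes the medians were -0.05 in dxo1 and -0.14 in Col-0, and the threshold was met by 12.1% of them in dxo1 and by 8.85% in Col-0. These values chose the genes and test nothing. In 64 of the 66 genes the libraries of the 2 conditions did not overlap in either genotype; the exceptions, AT4G32020 and PUB29, overlapped in dxo1. Complete separation in the required direction was found for 18.7% of eligible genes in dxo1 and 46.4% in Col-0. Of the 1014 eligible genes that met the Col-0 threshold, 6.51% met the dxo1 threshold as well, and 115 (11.3%) were at -0.8 or lower in dxo1 too. These are bulk samples, in which fewer cells of a type and less RNA per cell cannot be told apart.

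**Figure D1:**
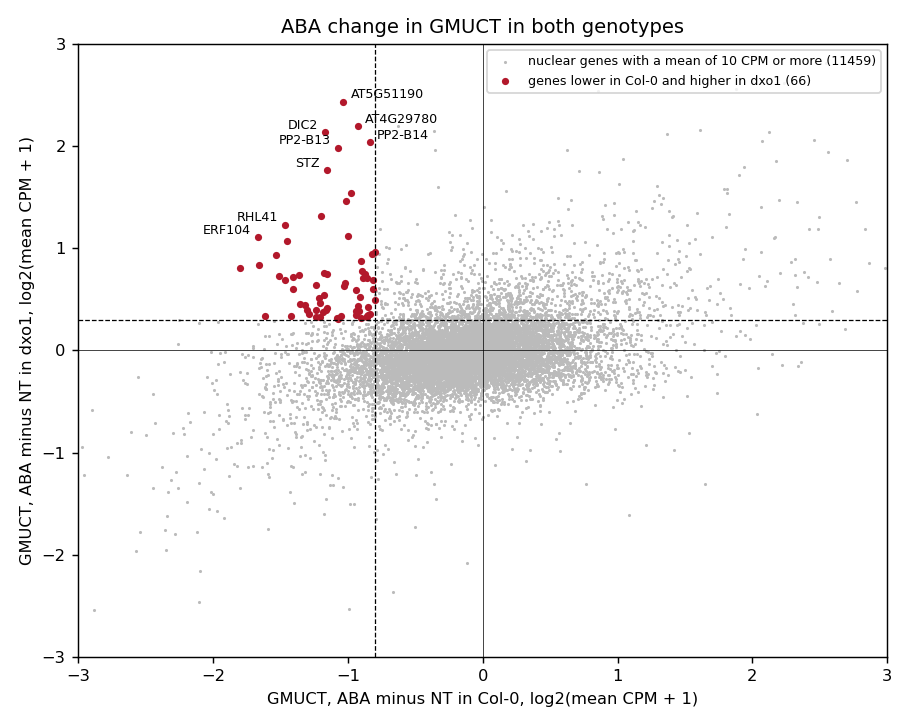
Change in GMUCT with ABA in dxo1 (vertical axis) against the change in Col-0 (horizontal axis), both as the difference of log2(mean CPM + 1). Grey points are the 11459 nuclear genes with a mean of 10 CPM or more (126 lie outside the plotted range), red points the 66 genes that met both dashed thresholds, and the 8 genes with the largest difference are named.

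The highest of the 4 group means was that of dxo1 with ABA in 42 genes and that of Col-0 without ABA in the other 24. The lowest was that of Col-0 with ABA in 59 genes and that of dxo1 without ABA in the other 7. The rule allows no other group to be highest or lowest, so only the split between the allowed groups was free. Without ABA the genes were mostly lower in dxo1 than in Col-0: the difference was below 0 in 59 of 66 (median -0.49, against 0.14 over all eligible genes), and 20 genes were at -0.8 or lower, a level met by 2.60% of eligible genes. With ABA the median difference between dxo1 and Col-0 was 1.21 (0.24 over all eligible genes), and 53 genes were at 0.8 or higher, as were 14.8% of eligible genes. These contrasts use the libraries that chose the genes and are given without a test.

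Transcription factors were 13 of the 66 genes. AT5G51190 (synonym ERF105; chr5:20800473-20801437, minus strand, coordinates from RefSeq TAIR10.1 throughout), an ethylene response factor gene, had the largest difference between genotypes: 26.9 and 36.5 CPM in dxo1 with ABA, against 5.24 and 4.89 CPM in dxo1 without ABA, and 7.62 and 2.59 CPM in Col-0 with ABA, against 11.4 and 11.6 CPM in Col-0 without ABA. The dxo1 libraries with ABA stood above all others. A gene on the opposite strand, AT5G51180, overlaps AT5G51190 and had 2128 GMUCT counts over all libraries beside its 1028. STZ (synonym ZAT10; chr1:9648021-9649323, minus strand), a zinc finger repressor induced by salt and cold, had 28.2 and 37.3 CPM in dxo1 with ABA, against 8.54 and 9.33 CPM in dxo1 without, and 9.80 and 7.77 CPM in Col-0 with ABA, against 17.0 and 24.7 CPM in Col-0 without. RHL41 (synonym ZAT12; chr5:24102814-24103794, plus strand), the related zinc finger of the response to high light and oxidative stress, had 28.8 and 35.1 CPM in dxo1 with ABA, against 13.3 and 12.8 CPM in dxo1 without, and 5.13 and 4.83 CPM in Col-0 with ABA, against 16.2 and 14.9 CPM in Col-0 without. In both zinc finger genes the dxo1 libraries with ABA were the highest of the 8.

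WRKY33 (chr2:16108235-16110766, plus strand), which acts in defence against necrotrophic fungi, had 308 and 324 CPM in dxo1 with ABA, against 120 and 109 CPM in dxo1 without, and 50.5 and 60.9 CPM in Col-0 with ABA, against 115 and 113 CPM in Col-0 without. The genotypes overlapped without ABA and were far apart with it. ERF104 (chr5:24766344-24767732, minus strand), an ethylene response factor that is a MAP kinase substrate, had 78.1 and 74.4 CPM in dxo1 with ABA, against 39.1 and 30.6 CPM in dxo1 without, and 22.1 and 16.1 CPM in Col-0 with ABA, against 65.7 and 59.6 CPM in Col-0 without. ERF5, a close relative, had 21.9 and 24.3 CPM in dxo1 with ABA, against 12.1 and 11.1 CPM in dxo1 without, and 10.4 and 9.49 CPM in Col-0 with ABA, against 16.5 and 20.3 CPM in Col-0 without. In these 3 factors the dxo1 libraries with ABA were above all others and the Col-0 libraries with ABA below all others. The rule itself fixes much of this order.

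MYB73 (chr4:17540490-17541799, plus strand), a MYB factor of salt and auxin responses, was the most abundant of the factors, at 1839 and 1509 CPM in dxo1 with ABA, against 1319 and 1125 CPM in dxo1 without, and 565 and 542 CPM in Col-0 with ABA, against 1368 and 1466 CPM in Col-0 without. Its close relative MYB77 had 269 and 197 CPM in dxo1 with ABA, against 149 and 133 CPM in dxo1 without, and 57.4 and 47.1 CPM in Col-0 with ABA, against 135 and 145 CPM in Col-0 without. For this pair the Col-0 change is the larger: -1.35 for MYB73 and -1.41 for MYB77 in Col-0, beside 0.45 and 0.72 in dxo1. The other factors were DOF1, TEM1 (a repressor of flowering), HSF A4A (a heat shock factor), RAP2.4 and AT1G22190. DOF1 had 86.3 and 76.3 CPM in dxo1 with ABA, against 41.3 and 42.8 CPM in dxo1 without, and 15.6 and 18.0 CPM in Col-0 with ABA, against 50.2 and 50.4 CPM in Col-0 without. TEM1 and AT1G22190 were highest in Col-0 without ABA. TEM1 had 246 and 264 CPM in dxo1 with ABA, against 139 and 139 CPM in dxo1 without, and 204 and 202 CPM in Col-0 with ABA, against 380.4 and 381 CPM in Col-0 without. AT1G22190 had 634 and 595 CPM in dxo1 with ABA, against 388 and 397 CPM in dxo1 without, and 363 and 333 CPM in Col-0 with ABA, against 794 and 849 CPM in Col-0 without.

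Among the genes that are not transcription factors, DIC2 (chr4:12686459-12687650, plus strand), a mitochondrial dicarboxylate carrier, had 399 and 309 CPM in dxo1 with ABA, against 77.0 and 82.4 CPM in dxo1 without, and 73.7 and 68.0 CPM in Col-0 with ABA, against 162 and 158 CPM in Col-0 without. AT4G29780 (chr4:14579563-14582057, plus strand), annotated as a nuclease, had 61.3 and 73.0 CPM in dxo1 with ABA, against 14.8 and 13.1 CPM in dxo1 without, and 9.80 and 14.5 CPM in Col-0 with ABA, against 22.2 and 25.9 CPM in Col-0 without. Their changes in dxo1 were 2.14 and 2.19, beside 2.43 for AT5G51190. The neighbouring phloem protein genes PP2-B13 and PP2-B14 had means in dxo1 with ABA of 29.3 and 30.4 CPM, against 6.65 and 6.65 CPM in dxo1 without, and of 1.84 and 2.61 CPM in Col-0 with ABA, against 4.97 and 5.45 CPM in Col-0 without. Their coding sequences are 90.8% identical where aligned, so reads could be split or lost between them and their separate levels are uncertain.

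None of the members came from the lists of calmodulin and calcium-binding proteins (64 eligible genes), auxin response (46) or jasmonate (18). Members are only 0.576% of eligible genes and 29 of 40 lists hold none, so absence from lists this small tells little. PBP1 and CP1, which those lists do not hold, encode calcium-binding proteins. ACS7 (chr4:13275200-13277188, plus strand) makes the precursor of ethylene and had 32.9 and 21.5 CPM in dxo1 with ABA, against 13.8 and 11.1 CPM in dxo1 without, and 9.80 and 13.3 CPM in Col-0 with ABA, against 33.2 and 33.6 CPM in Col-0 without. PBP1, a calcium-binding partner of the PINOID kinase, had 18.1 and 33.0 CPM in dxo1 with ABA, against 8.11 and 8.09 CPM in dxo1 without, and 2.33 and 5.52 CPM in Col-0 with ABA, against 8.40 and 9.05 CPM in Col-0 without. CKX4, which degrades cytokinin, had dxo1 and Col-0 changes of 0.73 and -1.51. PHI-1, a phosphate-responsive gene, had 96.7 and 104 CPM in dxo1 with ABA, against 41.2 and 38.2 CPM in dxo1 without, and 26.1 and 30.7 CPM in Col-0 with ABA, against 69.2 and 64.3 CPM in Col-0 without. AT2G36690, a 2-oxoglutarate-dependent oxygenase gene, had the largest negative change in Col-0 (-1.80). It had 42.3 and 39.9 CPM in dxo1 with ABA, against 21.9 and 24.1 CPM in dxo1 without, and 16.5 and 13.98 CPM in Col-0 with ABA, against 59.0 and 52.2 CPM in Col-0 without. In dxo1 with ABA it stayed below both untreated Col-0 libraries.

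**Figure D2:**
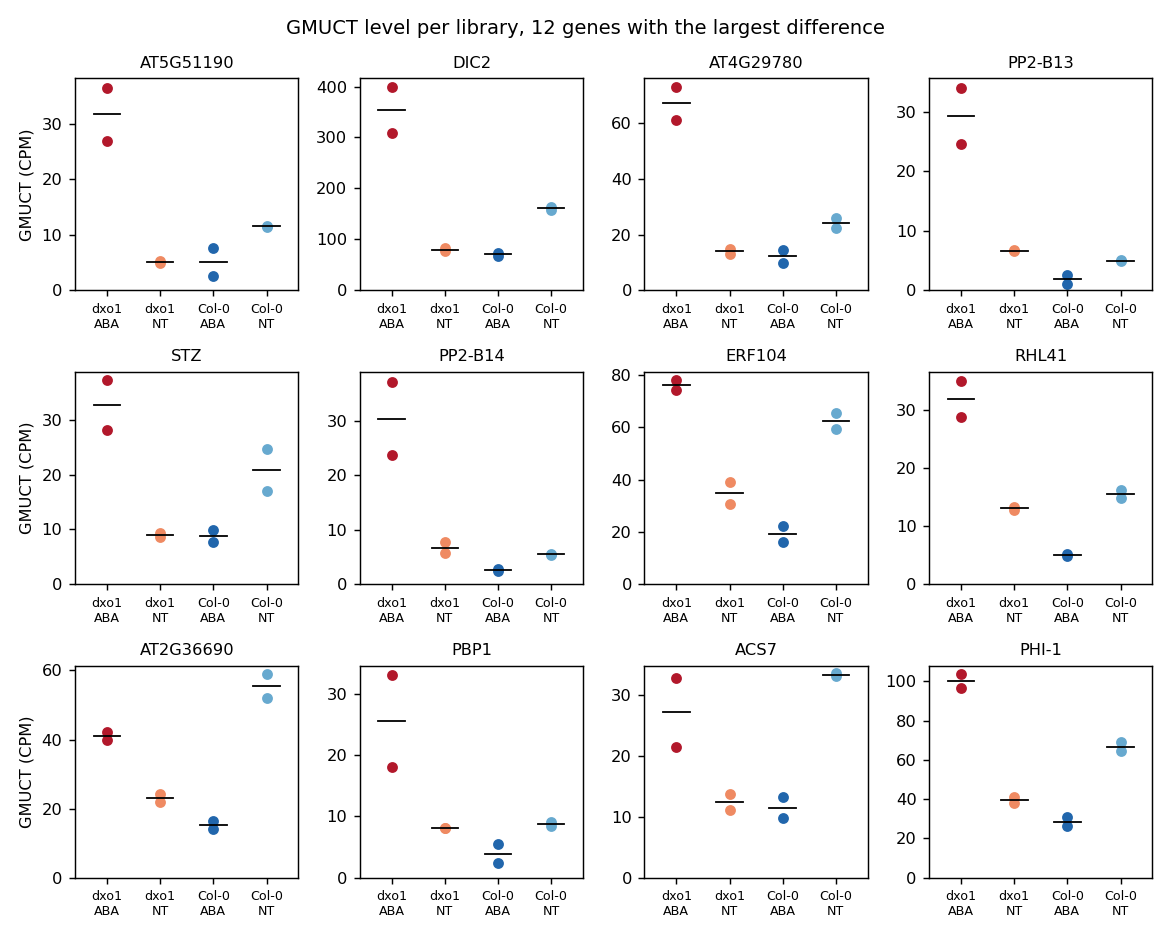
GMUCT level in CPM of the 12 genes with the largest difference between genotypes, 1 point per library with a line at the mean of the 2 libraries, in the order dxo1 with ABA, dxo1 without, Col-0 with ABA and Col-0 without. The dxo1 libraries with ABA are the highest in 10 panels, and in AT2G36690 and ACS7 the untreated Col-0 libraries are the highest.

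The remaining members span ubiquitin ligases (RHA1B, RHA3B and PUB29), kinases (AGC2-1, also known as OXI1, and AT4G02410), transporters (ABCG2 and UMAMIT33), the trehalose phosphate synthase homolog TPS8, the indole glucosinolate enzyme CYP81F4, SIGE and NdhT, whose products act in chloroplasts, and many genes without a known function. The change was 1 or more in dxo1 for 13 of 66 genes and -1.5 or lower in Col-0 for 6, and 17 had a mean of at least 100 CPM. AT4G32020, annotated as similar to serine/arginine repetitive matrix proteins, had the highest level in Col-0 without ABA: 1478 and 995 CPM in dxo1 with ABA, against 1137 and 832 CPM in dxo1 without, and 682 and 804 CPM in Col-0 with ABA, against 1758 and 1747 CPM in Col-0 without. Its dxo1 libraries overlap between conditions.

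The members were 62 protein-coding genes, 2 small nucleolar RNA genes (AT1G03743 and AT5G66562), 1 other noncoding RNA (AT1G16635) and the microRNA gene MIR319b. The dxo1 change was 0.32 for AT1G03743, 0.38 for AT5G66562, 0.43 for AT1G16635 and 0.60 for MIR319b. The coding gene AT1G72645 and AT1G16635 each hold an annotated small nucleolar RNA on the same strand, which the count files do not list separately, so their counts may include it. A further 14 members overlap a gene on the opposite strand; the libraries are described as strand-specific, and whether the counting used the strand is not given in the sources used here. The clearest case is AT3G62040, with 1671 GMUCT counts in all, beside 70840 for its partner.

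MIR319b (chr5:16660469-16660640, minus strand) encodes miR319b, which guides the cleavage of TCP and some MYB transcripts. It had 15.5 and 19.4 CPM in dxo1 with ABA, against 11.1 and 11.3 CPM in dxo1 without, and 2.96 and 8.63 CPM in Col-0 with ABA, against 15.4 and 18.6 CPM in Col-0 without. The untreated Col-0 libraries overlapped those of dxo1 with ABA, and the Col-0 libraries with ABA were the lowest. Its mature sequence is printed because its known target genes are described further on; it lies at chr5:16660469-16660489 on the minus strand of TAIR10.1, with the seed (bases 2 to 8) in capitals.
miR319b: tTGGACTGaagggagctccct

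The genes nearest the thresholds had values close to those of many members. Just inside the Col-0 threshold were AT4G36500 (-0.80), TET8 (-0.80) and PUB29 (-0.81), and just outside it AT4G33666, AT5G46710 and MRH6 (all -0.80). Just inside the dxo1 threshold were CP1 (0.31), RBL6 (0.32) and AT1G03743 (0.32), and just outside it CYP706A6 (0.30), NAC102 (0.30) and AT3G07670 (0.29). PP2-B13 had the lowest mean that passed (10.7 CPM), and AT5G51390 the highest mean that did not (9.55 CPM). When any 1 of the 8 GMUCT libraries was left out, between 60 and 84 genes met the rule, and 32 of the 66 met it each time.

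Total RNA was not used by the rule. Each library held few counts of these genes: 27 of 66 had fewer than 20 counts over all 8 libraries, the median was 26, and 94961 of 104005 counts belonged to AT1G72645. For the other 61 coding genes on nuclear chromosomes the counts were summed and divided by all nuclear coding counts. In GMUCT this summed level was 93.5 and 80.9 per 10000 in dxo1 with ABA, against 60.3 and 54.3 in dxo1 without, and 36.8 and 37.8 in Col-0 with ABA, against 85.0 and 88.1 in Col-0 without. In total RNA it was 23.0 and 24.3 per 10000 in dxo1 with ABA, against 25.2 and 21.4 in dxo1 without, and 20.1 and 18.3 in Col-0 with ABA, against 21.1 and 15.9 in Col-0 without. The total RNA libraries of the 2 conditions overlapped in both genotypes. The ratio of means between ABA and NT was 1.02 in dxo1 and 1.04 in Col-0 total RNA, beside 1.52 and 0.431 in GMUCT. The GMUCT ratios follow from the rule, and the sums weigh the genes differently. MYB73 and AT4G32020 averaged 1417 and 1753 CPM in untreated Col-0 GMUCT, but had 171 and 116 total RNA counts over 8 libraries. TEM1 and HSPRO2 averaged 381 and 209 CPM there and had 320 and 268 total RNA counts. By gene, 34 of the 61 were higher and 25 lower with ABA in dxo1 total RNA, and 34 were higher and 24 lower in Col-0 total RNA. These directions depend on the scaling and on few counts. In the edgeR fit (below) without a low-count filter, 38 of 65 members were above 0 in dxo1 and 31 in Col-0. Over all genes 52.0% were above 0 in dxo1 and 49.7% in Col-0.

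**Figure D3:**
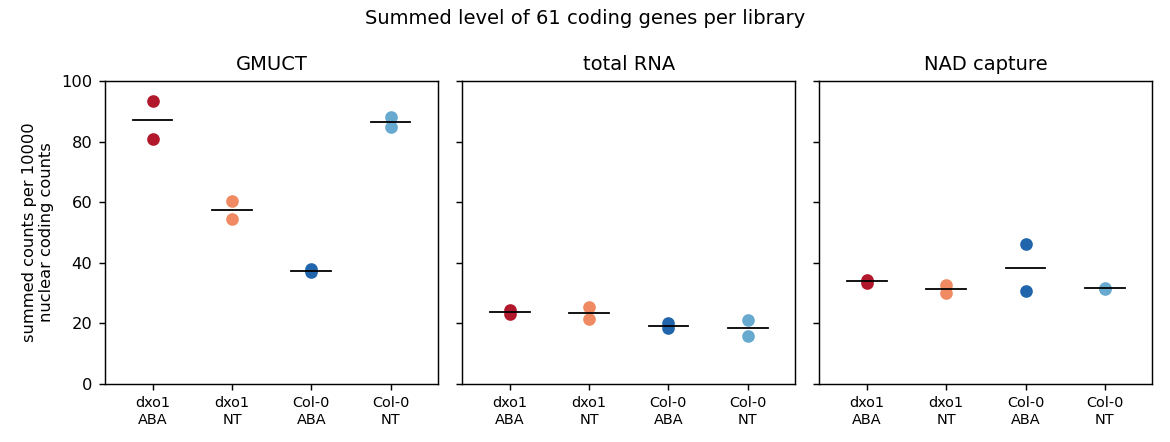
Summed counts of 61 coding genes per 10000 nuclear coding counts in each library, for GMUCT, total RNA and NAD capture, 1 point per library with a line at the mean of 2. In GMUCT, where the genes were chosen, dxo1 with ABA (93.5 and 80.9) and Col-0 without ABA (85.0 and 88.1) overlap and lie above the other 2 groups, and every total RNA library lies between 15.9 and 25.2.

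No member passed an adjusted p of 0.05 in any of 5 total RNA contrasts (edgeR quasi-likelihood test, 4965 genes tested, of which 19 were members). Over all genes tested, 0.725% of genes passed for ABA in dxo1, 0.443% for ABA in Col-0, 0.0403% for dxo1 against Col-0 with ABA, 0.0604% without ABA, and 0 for the interaction of genotype and ABA. At an unadjusted p under 0.05 the members counted 4 of 19 for ABA in dxo1, 4 for ABA in Col-0, 2 for dxo1 against Col-0 with ABA, 2 without ABA and 3 for the interaction. Over all genes the shares were 10.5% for ABA in dxo1, 12.2% for ABA in Col-0, 9.83% for dxo1 against Col-0 with ABA, 13.5% without ABA and 5.90% for the interaction. DESeq2 called 1 member, AT1G72645, lower in dxo1 than in Col-0 without ABA, and 0 in the other contrasts; over all 4965 genes it called 5 higher and 29 lower in that contrast. The median log2 fold change of the members was 0.13 for ABA in dxo1 (0.06 over all genes), -0.18 for ABA in Col-0 (0.01) and 0.27 for the interaction (0.05). Standard errors of single members for the ABA contrasts ran from 0.35 to 1.05, against a median GMUCT change of 0.62 in dxo1 and -1.08 in Col-0.

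The members with the smallest p in total RNA did not share a direction. HSPRO2 (chr2:16700490-16702336, minus strand) is the ortholog of a sugar beet nematode resistance gene. In total RNA it had 16.5 and 12.8 CPM (scaled with TMM, edgeR's trimmed mean method) in dxo1 with ABA, against 37.4 and 33.8 CPM in dxo1 without, and 15.5 and 23.4 CPM in Col-0 with ABA, against 47.7 and 33.5 CPM in Col-0 without. That is a log2 fold change of -1.27 ± 0.38 (SE) in dxo1 and -1.10 ± 0.38 in Col-0, with edgeR Benjamini-Hochberg adjusted p of 0.208 in dxo1 and 0.274 in Col-0. In GMUCT, in contrast, it had 163 and 152 CPM in dxo1 with ABA, against 82.2 and 94.1 CPM in dxo1 without, and 64.5 and 65.9 CPM in Col-0 with ABA, against 214 and 204 CPM in Col-0 without. In dxo1 the sign of the estimate thus differed between the readouts, and the total RNA estimate did not pass.

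PRR5, a clock repressor, likewise had 4.55 and 0 CPM of total RNA in dxo1 with ABA, against 12.0 and 15.2 CPM in dxo1 without (log2 fold change -2.40 ± 0.71, edgeR adjusted p = 0.204). CP1, a calcium-binding protein gene, had 23.3 and 36.3 CPM in dxo1 with ABA, against 15.3 and 9.28 CPM in dxo1 without, and 11.8 and 13.2 CPM in Col-0 with ABA, against 20.3 and 16.8 CPM in Col-0 without. Its interaction estimate was 1.84 ± 0.60, with an edgeR adjusted p of 0.697. AT5G60680 had 17.1 and 14.9 CPM in dxo1 with ABA, against 25.4 and 16.0 CPM in dxo1 without, and 12.5 and 7.11 CPM in Col-0 with ABA, against 34.4 and 28.5 CPM in Col-0 without. Its change in Col-0 was -1.65 ± 0.43 (edgeR adjusted p = 0.154).

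Single libraries decided some calls. WRKY33 had 10.8 and 46.2 CPM of total RNA in dxo1 with ABA, against 21.4 and 18.6 CPM in dxo1 without, and 16.2 and 14.2 CPM in Col-0 with ABA, against 12.5 and 8.39 CPM in Col-0 without. With the first dxo1 ABA library left out, 4 members passed for ABA in dxo1 (WRKY33, ERF5 and CP1 higher, PRR5 lower) and 5 for dxo1 against Col-0 with ABA (these 4 and AT3G25597). Without that library the calls over all 5729 genes tested were 175 higher and 39 lower for ABA in dxo1, and 282 higher and 78 lower for dxo1 against Col-0 with ABA. With the second untreated dxo1 library left out, AT1G03743 and AT1G16635 passed as higher with ABA in dxo1, and 3 members passed as lower in dxo1 than in Col-0 without ABA. Over all 5981 genes tested without that library, 40 were higher and 5 lower for ABA in dxo1, and 0 were higher and 65 lower in dxo1 than in Col-0 without ABA.

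NAD capture was not used by the rule either, and 26 members were among the 5475 genes tested against total RNA. RTFL17 (chr1:4525414-4526204, minus strand), which encodes a small peptide of the ROTUNDIFOLIA family, passed as higher in NAD capture in dxo1: the log2 ratio of NAD to total RNA was 1.57 ± 0.37 in dxo1 with ABA (edgeR adjusted p = 0.00826) and 2.38 ± 0.39 in dxo1 without ABA (0.000284). It had 58 and 59 NAD counts in dxo1 with ABA, 81 and 67 in dxo1 without, 3 and 25 in Col-0 with ABA, and 33 and 30 in Col-0 without; the difference of the ratio between genotypes was not tested. The call with ABA was lost in 6 of 12 alternatives (adjusted p from 0.00463 to 0.451), among them leaving out either NAD library of that group or its second total RNA library. In these contrasts 5.37% of genes were higher in dxo1 with ABA and 7.03% in dxo1 without ABA, beside 1 and 2 of the 26 members. The other higher member was AT5G66562, the small nucleolar RNA gene, in dxo1 without ABA (4.40 ± 0.77, edgeR adjusted p = 0.000562), with 44 and 39 NAD counts beside 1 and 4 total RNA counts.

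AT1G72645 was lower in NAD capture than in total RNA in all 4 groups, with log2 ratios of -4.57 ± 0.71 in dxo1 with ABA, -5.37 ± 0.74 in dxo1 without, -4.73 ± 0.72 in Col-0 with ABA and -8.04 ± 0.84 in Col-0 without (edgeR adjusted p from 1.48e-06 to 0.00039). Lower ratios were called for 6.03% and 6.45% of genes in dxo1 with and without ABA, and for 1.75% and 2.76% in Col-0 with and without ABA. AT1G72645 was the only lower member in each. Its NAD counts were 160 and 113 in dxo1 with ABA and 110 and 73 in dxo1 without. In Col-0 they were 100 and 177 with ABA and 99 and 117 without. Its total RNA counts were 4644 and 5936 in dxo1 with ABA and 1328 and 8044 in dxo1 without. In Col-0 these were 11654 and 7616 with ABA and 31277 and 24462 without. They may include the small nucleolar RNA that the gene holds, and differences of the ratio between groups were not tested. The summed level of the 61 coding members in NAD capture was 34.3 and 33.4 per 10000 in dxo1 with ABA, against 29.9 and 32.8 in dxo1 without, and 46.01 and 30.5 in Col-0 with ABA, against 31.4 and 31.6 in Col-0 without. The first Col-0 ABA library had only 33038 nuclear coding counts and 33 of the 61 genes at 0, so its value rests on the fewest counts.

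Gene structure was not used by the rule. Of 62 coding members, 34 (54.8%) have no intron in any annotated transcript, against 11% of 11343 eligible coding genes, 12.6% of the other 916 eligible genes that met the Col-0 threshold, and 21.6% of 37 genes of the opposite rule. The median transcript length was 1330 bases, against 1805 bases over eligible genes. The lists of transcription factors and ethylene response factors hold 13 members (19.7%) and 4.28% of eligible genes. Of these 13 members 11 (84.6%) have no intron, beside 14.1% of the eligible genes of both lists. Among the other 49 coding members 46.9% have none, beside 10.9% of the other eligible genes.

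The 250 bases before the annotated start of each coding gene were searched on both strands for 12 short motifs. The W-box core TTGACC, bound by WRKY factors, was in 21.0% of the members' windows, in 11.9% of all eligible windows and in 21.6% of those of the opposite rule. The site II element TGGGCC, found before growth and ribosomal genes, was in 3.23% of members and 18.5% of eligible genes. The rapid stress response element CGCGTT or the overlapping CAMTA element ACGCGT was in 4 members (6.45%) and in 3.67% of eligible genes. Among these members are PP2-B13 and PP2-B14, whose coding sequences are 90.8% identical. The windows of this pair share runs of letters, also around a W-box core, so their matches are not separate cases. The ABRE core ACGTG of ABA-responsive promoters was in 25.8% of members and 23.8% of eligible genes. A match describes the letters in the window and is not evidence of binding.

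**Figure D4:**
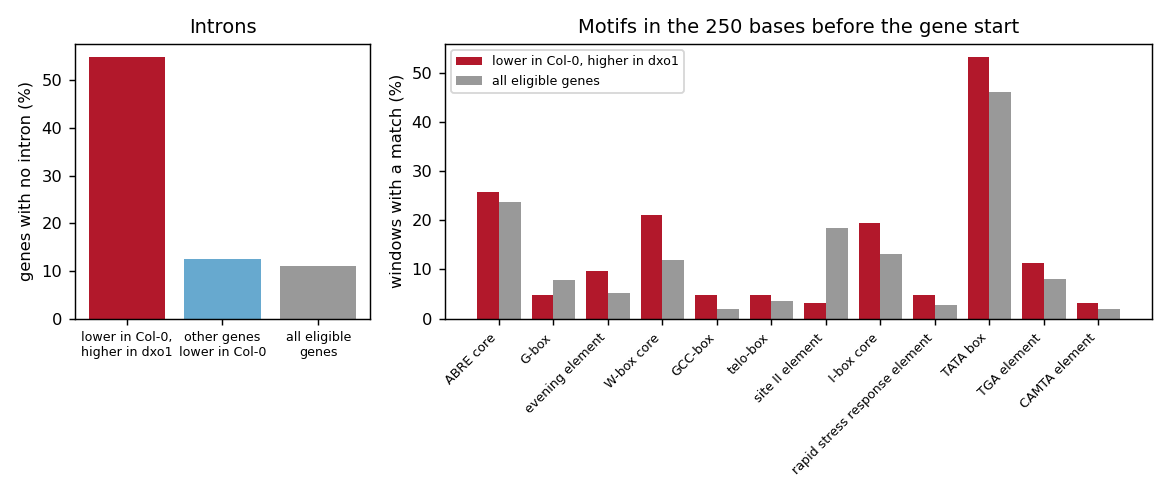
Left, percent of coding genes with no intron among the 66 genes (62 coding), the other genes lower in Col-0 and all eligible genes. Right, percent of windows of 250 bases before the gene start with at least 1 match to each of 12 motifs, for members and all eligible genes. The share without introns is 54.8% in the members and 11% in all eligible genes.

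The windows of 6 members are printed because they carry the stress element, the CAMTA element or the W-box beside genes described above. Capitals mark these 3 motifs on either strand, and each window is read 5′ to 3′ toward the gene from RefSeq TAIR10.1. They lie at chr4:12686209-12686458 (plus strand, DIC2), chr1:12851733-12851982 (plus, PHI-1), chr1:21057578-21057827 (minus, PP2-B13), chr1:21063048-21063297 (minus, PP2-B14), chr2:16107985-16108234 (plus, WRKY33) and chr3:9195084-9195333 (plus, AGC2-1).
DIC2: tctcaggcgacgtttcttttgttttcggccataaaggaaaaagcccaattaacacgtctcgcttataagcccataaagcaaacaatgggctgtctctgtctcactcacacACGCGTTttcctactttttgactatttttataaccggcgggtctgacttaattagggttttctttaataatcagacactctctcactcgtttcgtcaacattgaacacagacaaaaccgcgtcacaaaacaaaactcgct
PHI-1: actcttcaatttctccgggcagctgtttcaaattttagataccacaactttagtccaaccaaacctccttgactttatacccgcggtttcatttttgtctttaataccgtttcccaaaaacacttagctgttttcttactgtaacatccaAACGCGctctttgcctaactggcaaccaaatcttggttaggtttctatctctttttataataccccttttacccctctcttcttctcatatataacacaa
PP2-B13: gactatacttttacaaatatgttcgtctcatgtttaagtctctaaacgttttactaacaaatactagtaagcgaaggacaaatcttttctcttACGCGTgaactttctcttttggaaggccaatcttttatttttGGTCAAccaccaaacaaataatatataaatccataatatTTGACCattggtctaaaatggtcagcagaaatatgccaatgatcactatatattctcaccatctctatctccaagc
PP2-B14: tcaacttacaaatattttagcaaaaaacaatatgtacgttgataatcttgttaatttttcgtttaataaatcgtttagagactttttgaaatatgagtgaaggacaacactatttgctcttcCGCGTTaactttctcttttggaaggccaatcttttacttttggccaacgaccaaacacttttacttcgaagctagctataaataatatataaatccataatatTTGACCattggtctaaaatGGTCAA
WRKY33: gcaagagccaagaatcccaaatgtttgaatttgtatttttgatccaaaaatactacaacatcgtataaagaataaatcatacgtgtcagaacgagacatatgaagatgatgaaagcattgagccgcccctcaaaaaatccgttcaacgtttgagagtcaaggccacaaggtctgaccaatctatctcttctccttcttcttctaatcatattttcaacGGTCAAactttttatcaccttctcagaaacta
AGC2-1: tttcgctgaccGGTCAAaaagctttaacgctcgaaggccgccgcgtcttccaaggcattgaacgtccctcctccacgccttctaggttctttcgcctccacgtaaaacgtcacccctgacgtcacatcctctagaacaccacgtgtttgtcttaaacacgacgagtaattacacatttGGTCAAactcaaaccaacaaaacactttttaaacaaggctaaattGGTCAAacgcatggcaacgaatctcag

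In the DIC2 window both elements overlap in a single run, 140 and 139 bases before the start. PP2-B13 holds the CAMTA element and PP2-B14 the stress element, each with 2 copies of the W-box core. AGC2-1 holds 3 copies of the W-box core. AT5G51190, STZ, RHL41, ERF104 and ERF5 hold none of these letters in their windows.

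A total of 40 lists of stress, hormone and growth genes were used to place the members among their relatives. List genes outside the rule were tested with the same libraries and contrasts that chose the members. Their results describe these relatives and give the members no independent support. The GMUCT fit held 19644 genes. There 4.26% of genes had a higher change with ABA in dxo1 than in Col-0 and 4.67% a lower one (836 higher and 917 lower; 1188 and 720 when only library size was used for scaling, which moved the median of all genes to 0.11). Of 23 eligible ethylene response factors 5 are members (21.7%), and of the 38 others tested 4 had a higher and 1 a lower interaction. Of 22 eligible WRKY factors only WRKY33 is a member, and of 52 others tested 5 were higher and 1 lower. No member came from 21 eligible ABA-induced genes. The rule requires a lower level with ABA in Col-0, which largely fixes this absence for genes that rise there. Members are also only 0.576% of all eligible genes, so the absence tells little. Over all genes 5.15% rose and 2.53% fell with ABA in dxo1, and 14% rose and 12.8% fell in Col-0 (edgeR adjusted p at most 0.05). In the ABA-induced list 19 of 25 genes rose with ABA in dxo1 and 20 of 25 in Col-0, with medians of 1.524 in dxo1 and 1.498 in Col-0, and the interaction was higher for 2 and lower for 7.

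Among touch and calcium response genes, of which STZ and RHL41 are members, all 6 others tested passed for the interaction, 5 higher and 1 lower. CML37, CML38, TCH2 and TCH3 are also in the wider list of calmodulin and calcium-binding proteins. Of 103 genes tested in that list, 10 were higher and 5 lower for the interaction, with a median of -0.01. TCH4, a xyloglucan enzyme of the cell wall, had 1490 and 1640 CPM in dxo1 with ABA, against 683 and 744 CPM in dxo1 without, and 732 and 710 CPM in Col-0 with ABA, against 914 and 778 CPM in Col-0 without; the interaction was 1.25 ± 0.22 (edgeR adjusted p = 0.00125). ZAT6, a relative of STZ, fell with ABA in Col-0 (-2.01 ± 0.23), had an estimate of 0.34 ± 0.21 in dxo1 and had an interaction of 2.35 ± 0.32 (edgeR adjusted p = 9.33e-05). The calmodulin-like genes CML37 and CML38 rose with ABA in dxo1 and had interactions of 2.24 ± 0.47 and 1.24 ± 0.28, and the calmodulin-like TCH2 one of 1.03 ± 0.29; CML38 rose in Col-0 too (0.78 ± 0.20). TCH3, another calmodulin-like gene, rose in both genotypes, by 0.53 in dxo1 and 1.47 in Col-0 (interaction -0.935 ± 0.218). Without the first untreated Col-0 library, 3 of the 6 passed, and the call of TCH2 was lost without any 1 of 6 of the 8 libraries. These genes were named after their values were seen. Their tests used the GMUCT libraries that chose the members, so they are no independent support for the pattern.

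The circadian clock list holds PRR5. Of 22 other clock genes tested, 2 rose and none fell with ABA in dxo1, while 1 rose and 11 fell in Col-0. The interaction was higher for CCA1, CDF1, CDF3 and AT5G64170 (synonym LNK1) and lower for BOA. CCA1, a morning clock repressor, had 5.62 and 4.19 CPM in dxo1 with ABA, against 3.44 and 4.74 CPM in dxo1 without, and 0.933 and 0.863 CPM in Col-0 with ABA, against 4.49 and 5.93 CPM in Col-0 without (interaction 2.65 ± 0.54). The sources used here do not give the hour of harvest.

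**Figure D5:**
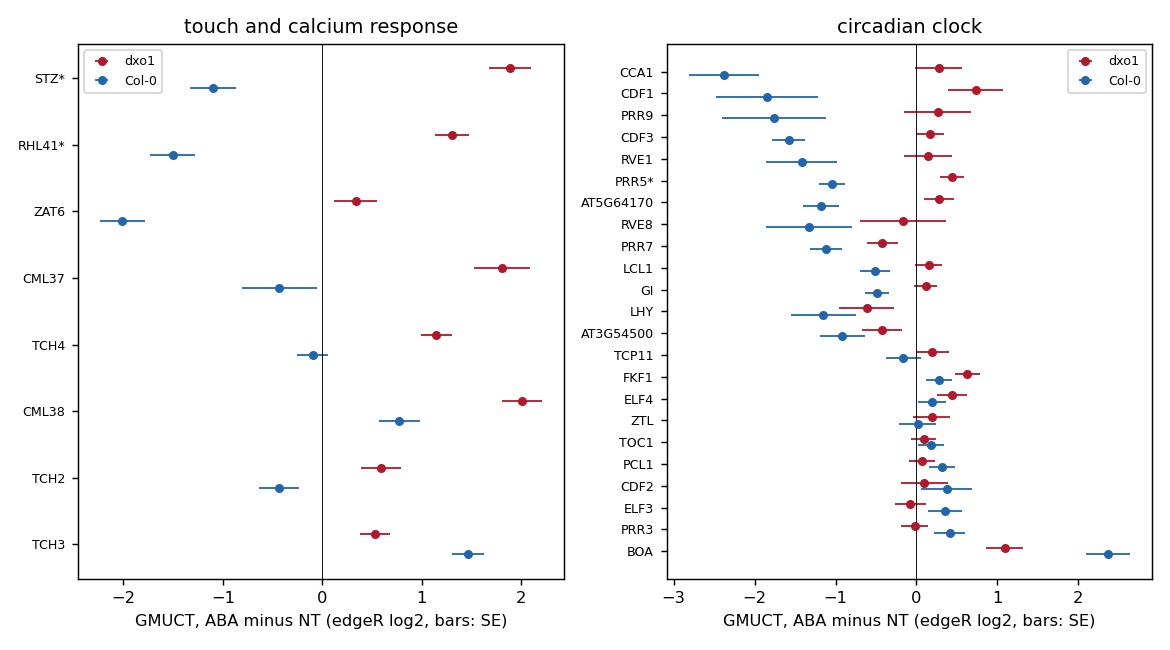
GMUCT change with ABA (edgeR log2 fold change, bars are standard errors) in dxo1 (red) and Col-0 (blue) for the tested genes of the touch and calcium list (left) and the circadian clock list (right), ordered by the difference; asterisks mark members of the 66 genes. ZAT6, CCA1 and CDF3 lie below 0 in Col-0 and near 0 in dxo1, while TCH4 and CML37 lie near or below 0 in Col-0 and above 1 in dxo1.

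For miR319b, the target genes were read in the same fit. TCP2, a growth regulator and target of miR319, had 51.8 and 35.7 CPM in dxo1 with ABA, against 45.9 and 38.9 CPM in dxo1 without, and 20.8 and 22.3 CPM in Col-0 with ABA, against 46.6 and 53.8 CPM in Col-0 without. It fell in Col-0 (-1.09 ± 0.20, edgeR adjusted p = 0.000389) and its interaction was 1.15 ± 0.27 (0.0106). TCP4 (-0.905 ± 0.210, edgeR adjusted p = 0.0032) and TCP24 (-0.629 ± 0.178, 0.0128) fell in Col-0 too. TCP3 and TCP10 did not pass for that change. MYB65, a target of the related miR159, had an interaction of 1.27 ± 0.32 (0.0163), whereas MYB33, the other such target in the list (0.607 ± 0.274, 0.191), TCP3 (-0.136 ± 0.254), TCP4 (0.61 ± 0.29), TCP10 (0.16 ± 0.29) and TCP24 (0.36 ± 0.24) did not pass. Over the list of microRNA targets and pathway genes 5 of 54 passed as higher for the interaction (TCP2, MYB65, SPL3, NAC1 and APS4) and 0 as lower. The named target genes were chosen after their values were seen. MIR319b had no count in the total RNA or NAD libraries.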

How the data were processed

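GMUCT, NAD capture and total RNA were sequenced in 8 libraries each. Reads were trimmed with cutadapt, aligned to TAIR10 with STAR 2.4.2a and counted with HTSeq, per the submitters' processing notes; whether counting used the strand is not given in the sources used here. The deposited values are raw counts per gene, and HTSeq rows that name no gene were dropped. CPM used the sum of gene rows. Members and gene lists were chosen with earlier results of these data known. Total RNA was fitted over its 4 groups, NAD capture together with total RNA, and GMUCT for list genes, with edgeR 4.0.16 in R 4.3.3 (filterByExpr with a minimum count of 10, TMM, quasi-likelihood test, Benjamini-Hochberg adjusted p at most 0.05). The total RNA and NAD capture fits were tested on simulated counts, and the GMUCT fit was not. Alternatives were DESeq2 1.42.0, other scalings and filters, the groups of a contrast alone, a replicate block and leaving out each library. The labels do not say that a replicate number marks a shared batch, and not every pair of same-numbered libraries correlated above 0.1, so no block was used in the main fits. Coordinates, structure and sequences are from RefSeq TAIR10.1, which matched 28009 IDs (97.3%), read with Python 3.11.15, pandas 2.3.3, numpy 2.4.6 and Biopython 1.88. Named members are the 12 with the largest difference, up to 4 per list by GMUCT level, the 8 with most total RNA counts, those past a threshold (up to 10 per contrast) and the 3 on either side of each rule threshold; other names were chosen after their values were seen.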

Additional observations from a re-analysis of the deposited data

Results flagged for a closer look

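The GMUCT change with ABA differed between dxo1 and Col-0, by the interaction in edgeR, for 16 genes that are not among the 66. They belong to the clock, touch and calcium, and microRNA lists. The test used the libraries that chose the 66 genes, so it gives those genes no independent support. Genes of other lists passed too (in the transcription factor list 65 higher and 53 lower of 893) and are not named here; these 3 lists and their alternatives were chosen after seeing the data. In log2 units the interaction was 2.65 for CCA1, 2.59 for CDF1, 1.74 for CDF3, 1.46 for AT5G64170 and -1.28 for BOA, all of the clock list. In the touch and calcium list it was 2.35 for ZAT6, 2.24 for CML37, 1.25 for TCH4, 1.24 for CML38, 1.03 for TCH2 and -0.935 for TCH3. In the microRNA list it was 1.27 for MYB65, 1.24 for SPL3, 1.15 for TCP2, 1.14 for NAC1 and 0.976 for APS4. The 2 largest values rest on levels near the floor. In Col-0 with ABA, CCA1 had 0.933 and 0.863 CPM and CDF1 had 0.467 and 0.518 CPM. NAC1, CCA1, CDF3, ZAT6, TCH4 and AT5G64170 passed in all 15 alternatives tried. The other 10 passed in 9 to 14 of 15, fewest for TCH2 (adjusted p from 0.00049 to 0.137), CDF1 (0.00366 to 0.198) and APS4 (0.00506 to 0.105).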

How the results depend on the processing

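Of the alternatives to the main counts and medians, 154 gave a value close to the main one and 36 moved it. For the single genes followed, 0 alternatives turned the direction of the estimate round. Counts and medians were not labelled for direction. With library size alone the members' median changed sign for dxo1 against Col-0 with ABA (main fit 0.12), without ABA (-0.15) and for the interaction (0.27). The number of genes meeting the rule was 42 with a pseudocount of 5 and 24 with thresholds of -1 and 0.5, and 60 to 84 when 1 library was left out; TMM scaling gave 49, of which 46 were among the 66. In total RNA the members called for ABA in dxo1 were 1 with no low-count filter and 0 to 4 when 1 library was left out. For ABA in Col-0 the groups of the contrast alone called 113 of all 3238 genes tested higher and 152 lower. There the members called were 3 (AT1G72645, HSPRO2 and AT5G60680, lower). For dxo1 against Col-0 they were 1 with ABA with no filter and 0 to 5 with 1 library left out, and without ABA 1 each with library size alone, DESeq2 and no filter, and 0 to 3 with 1 library left out. Scaling by library size alone moved the median of all genes as well: the members' median was -0.0447 for ABA in Col-0 (all genes 0.127), -0.0871 for dxo1 against Col-0 with ABA (all genes -0.117), 0.0777 without ABA (all genes 0.0964) and -0.0684 for the interaction (all genes -0.217). No filter gave 0 for ABA in Col-0. It called 84 of 20408 genes higher and 23 lower for ABA in dxo1. For dxo1 against Col-0 it called 41 higher and 13 lower with ABA, and 83 and 45 without. Without ABA library size alone called 2 of 4965 genes higher and 6 lower. With 1 library left out, the median ran from -0.0217 to 0.6 for ABA in dxo1, from -0.319 to -0.0885 for ABA in Col-0, from -0.146 to 0.508 for dxo1 against Col-0 with ABA, from -0.225 to 0.315 without ABA and from 0.113 to 0.858 for the interaction. In NAD capture over total RNA the members called in dxo1 with ABA were 1 with library size alone, no filter or the groups alone, and 1 to 2 with 1 library left out. In dxo1 without ABA they were 5 with no filter and 3 to 5 with 1 library left out; in Col-0 with ABA 3 with library size alone or no filter; in Col-0 without ABA 3 with no filter and 2 with the groups alone. The NAD calls over all genes moved too. With no filter 21388 genes were tested. Of these, 248 were higher and 360 lower in dxo1 without ABA, 39 and 160 in Col-0 with ABA. In Col-0 without ABA they were 64 higher and 151 lower. With library size alone, 5 of 5475 genes were higher and 378 lower in Col-0 with ABA (median of all genes -1.34). With the groups alone 113 of 2949 genes were higher and 204 lower in Col-0 without ABA. The cause was not tested.

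With the replicate block, 1 member (AT1G72645) was called for dxo1 against Col-0 without ABA, where the block called 82 of all genes and the fit without it 3. In total RNA the block called 97 genes for ABA in dxo1 (36 without it), 47 for ABA in Col-0 (22) and 22 for dxo1 against Col-0 with ABA (2), and 0 members in each; in GMUCT the interaction had 1918 calls with the block and 1753 without. The correlation of same-numbered libraries ran from 0.024 to 0.266 in total RNA, from -0.057 to 0.049 in NAD capture and from -0.051 to 0.118 in GMUCT, and was over 0.1 in total RNA for the 3 pairs among dxo1 with ABA, dxo1 without ABA and Col-0 without ABA. The labels give no shared batch for a number and not every pair passed 0.1, so the numbers were not taken to pair the libraries; whether these total RNA libraries share a source was not tested.

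Depth limits the total RNA and NAD results: 19 of the 66 genes were tested in total RNA and 26 in NAD capture, with 2 libraries a group.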
